A study of Mus musculus with 16 samples.

Results

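The creatine cycling genes are 6 genes that make creatine, carry it into cells, add phosphate to it and take that phosphate off again. They were Gatm, Gamt, Slc6a8, Ckb, Ckmt2 and Alpl, chosen by symbol in a table of raw read counts from mouse brown fat, and were 6 of the 38924 genes in that table. All 6 passed the filter on low counts and were among the 14103 genes tested.

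In textbook biochemistry, Gatm makes guanidinoacetate from arginine and glycine, and Gamt methylates it to creatine with S-adenosylmethionine as the methyl donor. Slc6a8 is the creatine transporter of the cell membrane. Creatine kinases move phosphate between ATP and creatine: Ckb is the brain-type enzyme, found in many tissues, and Ckmt2 is the mitochondrial enzyme of skeletal and heart muscle. Alpl encodes tissue-nonspecific alkaline phosphatase, which has been described in brown fat as hydrolysing phosphocreatine. Repeated phosphorylation and hydrolysis of creatine spends ATP and releases heat, a route described as independent of uncoupling protein 1 (Ucp1).

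The 16 bulk RNA-seq libraries came from whole interscapular brown fat of C57BL/6J mice, with 4 libraries in each of 4 groups. Wild-type littermates (WT) and mice lacking Akt2 in brown fat (KO) were kept at 30 °C, which is thermoneutral for mice, or at 22 °C, from 9 to 13 weeks of age. The knockout was made with UCP1-CreER, a tamoxifen-dependent Cre recombinase driven by the Ucp1 promoter, so cells of the depot that do not use that promoter would keep Akt2. The labels do not say which group carried the Cre beyond calling the controls wild type, nor that each library came from its own animal. The p-values therefore speak to the spread among these libraries, which may be technical. In bulk tissue, fewer cells of a type and less RNA per cell cannot be told apart.

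Library totals ranged from 12751528 to 23866743 counts, and the typical biological coefficient of variation between libraries of a group was 22.5%. Levels are given as counts per 1000000 (CPM) of the library size after trimmed-mean (TMM) adjustment. Akt2 was lower in KO than in WT at both temperatures, with means of 69.4 ± 10.7 against 204 ± 12.9 CPM at 30 °C and of 82.2 ± 6.03 against 232 ± 19.8 CPM at 22 °C (KO first, SD, n = 4). Brown adipocyte markers were present in every group, and Ucp1 averaged 1520 CPM in WT and 1790 CPM in KO at 30 °C against 6180 and 7170 CPM at 22 °C. Counts on 28 skeletal muscle marker genes made up between 0.00721% and 0.959% of a library and were over 0.1% in 5 libraries. The library with the largest share was KO at 22 °C replicate 1, at 0.959%, and it also had the highest summed level of the Schwann and nerve markers, 539 CPM.

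The creatine kinases are the members on which most of the results turn, so the bases just before the start of their genes are shown. The sequences are those of RefSeq on GRCm38.p6, 250 bases each, 5′ to 3′ on the strand of the gene, which is minus for both. Capitals mark TATAAA and CCAAT on either strand (a CCAAT on the other strand reads ATTGG). The Ckb window is chr12:111672339-111672588 and the Ckmt2 window is chr13:91876886-91877135.

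Ckb: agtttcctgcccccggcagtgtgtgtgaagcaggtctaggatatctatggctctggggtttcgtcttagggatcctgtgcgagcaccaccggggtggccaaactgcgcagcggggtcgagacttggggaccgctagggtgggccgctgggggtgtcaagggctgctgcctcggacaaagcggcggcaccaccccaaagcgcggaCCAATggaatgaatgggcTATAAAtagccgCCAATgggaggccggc

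Ckmt2: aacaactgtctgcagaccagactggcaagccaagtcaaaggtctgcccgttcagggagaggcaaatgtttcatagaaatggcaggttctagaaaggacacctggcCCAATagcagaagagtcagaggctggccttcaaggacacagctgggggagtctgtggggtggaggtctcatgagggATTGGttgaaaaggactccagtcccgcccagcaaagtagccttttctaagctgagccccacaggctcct

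The Ckb window holds a TATAAA whose first base lies 28 bases before the start, with a CCAAT on either side of it at 46 and 16 bases. The Ckmt2 window has no TATAAA and holds a CCAAT at 145 and one on the other strand at 69 bases before the start. These 2 motifs were picked after the sequences had been seen. Of 32851 promoter windows of the same length, 12.4% hold TATAAA and 33.8% hold CCAAT on either strand. The windows also differ in base composition, with 62.8% G and C in Ckb and 54.0% in Ckmt2 against a median of 52.4% over all windows. Windows were at hand for 5 of the 6 members, all but Slc6a8. None of the 5 held AAGGTCA (bound by estrogen-related receptors), CACGTG (the E-box), TGACGTCA (the full cAMP response element) or TGTTTAC (a forkhead site), on either strand, which are in 4.08%, 6.02%, 1.55% and 3.17% of all windows. TGACG, a shorter form of the cAMP response element, was in 1 of the 2 windows of Alpl and is in 17.8% of all windows. A match is a run of letters and not a site shown to be bound, and no match says only that the letters are not in the window.

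Ckb and Slc6a8 were the only members called by edgeR in any comparison. Gamt and Alpl differed less with temperature and were called only under some alternatives, as given below. Ckb and Slc6a8 both fell at 22 °C relative to 30 °C in WT and in KO, and Ckb was higher in KO than in WT at 22 °C. In the comparison of KO with WT at 30 °C, none of the 6 members passed the test (edgeR's quasi-likelihood test with Benjamini-Hochberg adjustment over all tested genes, adjusted p under 0.05), where 0.0425% of all tested genes passed (0.0284% higher and 0.0142% lower). There 1 member, Ckb, had an unadjusted p under 0.05, and DESeq2 and limma-voom each called 0 members. In KO against WT at 22 °C, 1 member was higher and 0 were lower, and 7.52% and 10.1% of all tested genes were called in those directions (17.6% in either). At 22 °C against 30 °C in WT, 2 members were lower and 0 were higher, against 17.8% and 20.5% of all tested genes (38.3% in either direction). The same comparison in KO called 2 members lower and 0 higher, against 13.0% and 13.8% of all tested genes (26.7% in either direction). The test of whether the KO effect differed between temperatures called 0 members, where 3.14% of all tested genes were called, 0.752% with a higher and 2.39% with a lower value. In that test 1 member, again Ckb, had an unadjusted p under 0.05, and DESeq2 and limma-voom each called that 1 member.

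The median log2 fold change of the 6 members was 0.05 for KO against WT at 30 °C and 0.36 at 22 °C, where the median of all tested genes was 0.02 in both. It was -0.70 for 22 °C against 30 °C in WT and -0.13 in KO, where all tested genes had medians of -0.03 and 0.02. With 6 genes these medians are a description of the list. The comparison of KO with WT at 22 °C and that of 22 °C with 30 °C in WT share the WT libraries at 22 °C, so their values are not independent of each other.

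**Figure D1:**
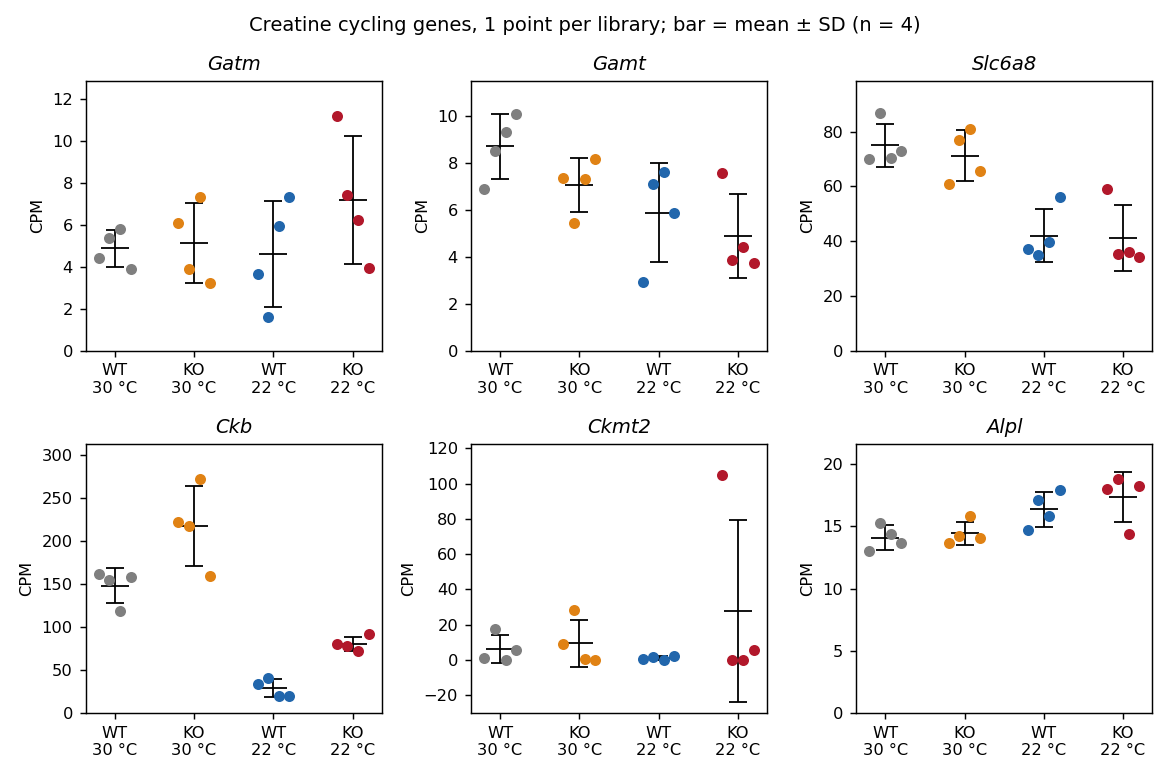
Level of each creatine cycling gene in CPM (linear axes, each with its own range), 1 point per library, by genotype and temperature, with bars for the mean and SD of 4 libraries. Ckb and Slc6a8 were lower in every library at 22 °C than in every library at 30 °C of the same genotype, and the Ckmt2 panel is set by 1 KO library at 22 °C with 105 CPM.

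Gatm (ENSMUSG00000027199, GRCm38 chromosome 2, 122594467 to 122611303, minus strand), the first enzyme of creatine synthesis, was expressed at a low level in every group. The WT libraries at 30 °C had 4.40, 5.39, 5.82 and 3.87 CPM, and the KO libraries at 30 °C had 6.07, 3.89, 7.32 and 3.21 CPM. At 22 °C the WT libraries had 3.64, 1.59, 5.94 and 7.32 CPM and the KO libraries 11.2, 7.41, 6.21 and 3.92 CPM. The groups overlapped in every comparison, and the counts behind these levels ran from 21 to 165 per library. The highest library was KO at 22 °C replicate 1 and the lowest was WT at 22 °C replicate 2.

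No comparison of Gatm passed the test. The log2 fold change of KO against WT was 0.07 (95% interval -0.78 to 0.91) at 30 °C and 0.63 (-0.21 to 1.47) at 22 °C, so a doubling at 22 °C lies inside the interval. The effect of 22 °C was -0.07 (-0.91 to 0.77) in WT and 0.49 (-0.34 to 1.33) in KO.

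Among 9984 tested genes of at least moderate level, the log2 CPM of Gatm over the 16 libraries was most like that of Plekha4 (Pearson's r 0.92), Plekhb1 (0.91) and Prx (0.90). With each group's mean taken off, the values were 0.90 for all 3 genes, so libraries of one group differed in Gatm and in these genes together. Prx encodes periaxin, a protein of myelinating Schwann cells, and is 1 of the 9 genes of the Schwann and nerve list. KO at 22 °C replicate 1 had the highest level of both genes, 19.5 CPM of Prx beside 11.2 CPM of Gatm. WT at 22 °C replicate 2 had the lowest of both, with 1.59 CPM each. Prx was named because its profile was like that of Gatm, so these shared libraries restate that choice. Against the sum of the whole list, the highest library was shared in 3 of the 4 groups and the lowest in 1. WT at 22 °C replicate 1 ranked 2 of 16 in the sum of the list and 14 of 16 in Gatm. The summed Schwann and nerve markers spanned 155 to 271 CPM for WT and 137 to 295 CPM for KO at 30 °C, then 229 to 357 and 278 to 539 CPM at 22 °C, and none of the 9 genes was at 0 in a whole group. The part of nerve tissue in the level of Gatm was not tested.

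**Figure D2:**
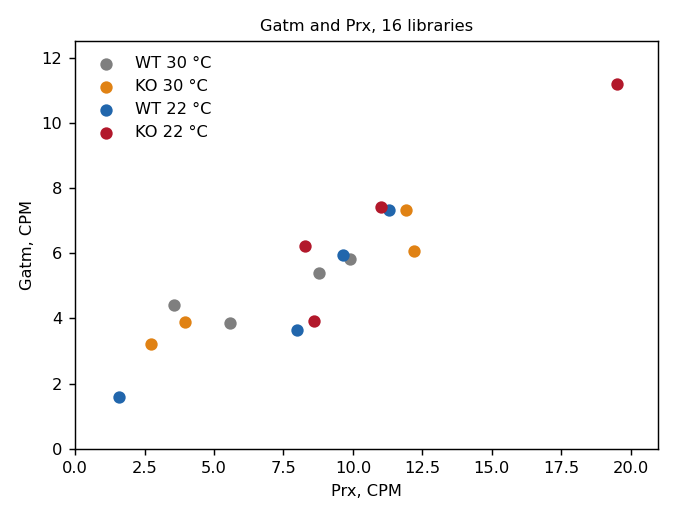
Level of Gatm against level of Prx, a Schwann cell gene, in CPM on linear axes, 1 point per library, coloured by group. The points run from 1.59 CPM of both genes in 1 WT library at 22 °C to 11.2 CPM of Gatm and 19.5 CPM of Prx in 1 KO library at 22 °C, and every group is spread along the same band.

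Gamt (ENSMUSG00000020150, chromosome 10, 80258151 to 80261012, minus strand), which completes creatine synthesis, was also low. At 30 °C the WT libraries had 6.89, 8.54, 9.33 and 10.1 CPM and the KO libraries 7.35, 5.44, 7.32 and 8.17 CPM. At 22 °C the WT libraries had 2.95, 7.13, 7.63 and 5.87 CPM and the KO libraries 7.56, 3.86, 4.41 and 3.74 CPM. The groups overlapped in each comparison. At 22 °C, 1 WT library lay well below the other WT libraries, and 1 KO library, replicate 1, lay well above the other KO libraries.

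The log2 fold change of Gamt at 22 °C against 30 °C was -0.57 (95% interval -1.15 to 0.01) in WT and -0.53 (-1.12 to 0.05) in KO, with edgeR adjusted p values of 0.11 and 0.164. Limma-voom with quality weights called both, at -0.65 (adjusted p 0.039) and -0.78 (adjusted p 0.0064), and edgeR called the KO value without KO at 22 °C replicate 1, at -0.82 (adjusted p 0.0295). KO against WT gave -0.30 (-0.87 to 0.27) at 30 °C and -0.27 (-0.85 to 0.32) at 22 °C. The profiles most like that of Gamt over the 16 libraries were those of Zfp330 (r 0.94, and 0.93 with group means taken off), Tmem43 (0.92 and 0.88) and Angptl4 (0.90 and 0.87), the last of which encodes a secreted inhibitor of lipoprotein lipase.

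Slc6a8 (ENSMUSG00000019558, chromosome X, 73673150 to 73682502, plus strand), the creatine transporter, fell at 22 °C in both genotypes. At 30 °C the WT libraries had 70.1, 86.6, 70.3 and 72.8 CPM and the KO libraries 61.0, 76.9, 80.9 and 65.6 CPM. At 22 °C the WT libraries had 37.1, 35.1, 39.6 and 56.2 CPM and the KO libraries 59.0, 35.3, 36.0 and 34.1 CPM. Every library at 22 °C was below every library at 30 °C of its genotype. The gap was narrow in KO, where replicate 1 at 22 °C with 59.0 CPM lay just below the lowest library at 30 °C with 61.0 CPM.

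The mean of Slc6a8 was 74.9 ± 7.86 CPM at 30 °C and 42.0 ± 9.64 CPM at 22 °C in WT, and 71.1 ± 9.33 and 41.1 ± 12 CPM in KO (SD, n = 4). The log2 fold change was -0.84 (SE 0.180, edgeR adjusted p 0.00192) in WT and -0.79 (SE 0.180, edgeR adjusted p 0.00492) in KO, which is 1.78-fold and 1.73-fold lower. Of the 2509 genes called lower in WT, 1042 (41.5%) had a larger change than Slc6a8, as did 768 of the 1829 (42.0%) called lower in KO. The effects of temperature in KO and WT differed by 0.04 (95% interval -0.49 to 0.58, edgeR adjusted p 0.934). KO against WT gave -0.08 (-0.45 to 0.30) at 30 °C and -0.03 (-0.41 to 0.35) at 22 °C, neither of which passed the test.

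Without the 5 libraries over 0.1% on skeletal muscle markers, the fall of Slc6a8 was -0.75 in WT (edgeR adjusted p 0.00719) and -1.06 in KO (0.00367). With the ratio of the clock genes Dbp and Arntl as a covariate it was -0.68 in WT and -1.29 in KO, and both were still called. The genes most like Slc6a8 were Tmem167b (r 0.95, and 0.90 with group means taken off), Arvcf (0.95 and 0.80) and Ahcyl2 (0.95 and 0.80). Ahcyl2, a relative of the enzyme that hydrolyses S-adenosylhomocysteine, was also lower at 22 °C, with log2 fold changes of -1.26 in WT (edgeR adjusted p 7.71e-05) and -1.34 in KO (0.000133).

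Ckb (ENSMUSG00000001270, chromosome 12, 111669361 to 111672338, minus strand), the brain-type creatine kinase whose promoter window is printed first, showed the widest range of the called members. The WT libraries at 30 °C had 162, 155, 119 and 158 CPM, and the KO libraries at 30 °C had 222, 218, 272 and 159 CPM. At 22 °C the WT libraries had 34.3, 41.1, 20.7 and 20.7 CPM and the KO libraries 80.9, 78.3, 72.8 and 92.0 CPM. All 4 KO libraries at 22 °C were above all 4 WT libraries at 22 °C, and below all 4 libraries of either genotype at 30 °C. At 30 °C, 3 KO libraries were above every WT library and 1 was inside the WT range.

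In WT, Ckb averaged 148 ± 19.9 CPM at 30 °C and 29.2 ± 10.2 CPM at 22 °C (SD, n = 4), a log2 fold change of -2.35 (SE 0.216, 95% interval -2.81 to -1.89, edgeR adjusted p 1.54e-06), or 5.09-fold lower. In KO it averaged 218 ± 46.6 and 81.0 ± 8.08 CPM, a log2 fold change of -1.43 (SE 0.208, -1.87 to -0.98, edgeR adjusted p 0.000228), or 2.69-fold lower. Only 63 of the 2509 genes called lower in WT (2.51%) had a larger change than Ckb, and 231 of the 1829 called lower in KO (12.6%) did. Over the same comparisons Ucp1 rose by 2.03 in WT and 2.00 in KO on the log2 scale, 4.07-fold and 4.01-fold.

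At 22 °C, Ckb was 2.78-fold higher in KO than in WT, a log2 fold change of 1.47 (SE 0.211, 95% interval 1.03 to 1.92, edgeR adjusted p 0.000357). Of the 1061 genes called higher in that comparison, 90 (8.48%) had a larger change. At 30 °C the difference was 0.55 (0.12 to 0.99), with an unadjusted p of 0.0161 and an edgeR adjusted p of 0.998. The KO effect at 22 °C exceeded that at 30 °C by 0.92 (0.30 to 1.54), with an unadjusted p of 0.00616 and an edgeR adjusted p of 0.0937. That difference was thus not called by edgeR, while DESeq2 (0.90, adjusted p 0.0363) and limma-voom (1.12, adjusted p 0.0202) called it. Without WT at 22 °C replicate 2, the WT library highest in Ckb at that temperature, edgeR called it as well, at 1.13 (adjusted p 0.0357). Over all alternative settings its adjusted p ran from 0.0202 to 0.663.

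**Figure D3:**
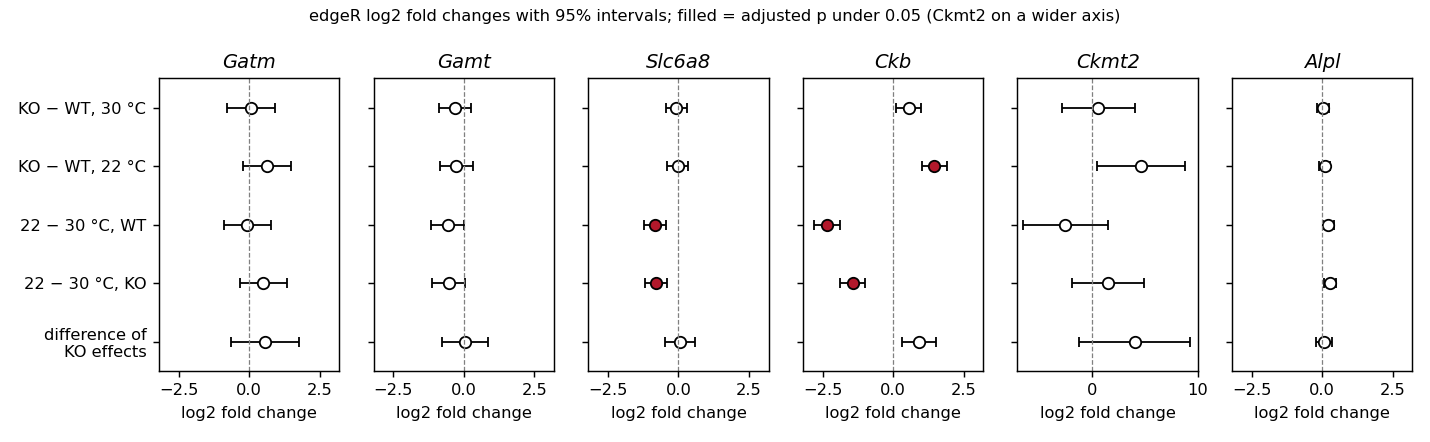
Log2 fold changes from edgeR with 95% intervals for each creatine cycling gene in 5 comparisons, on linear axes (the axis of Ckmt2 is wider). Filled points passed the adjusted threshold of 0.05, which were Ckb in 3 comparisons and Slc6a8 in 2.

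Several measures of the samples also differed between groups. The ratio of Dbp to Arntl, genes of opposite phase in the circadian clock, was taken on the log2 scale. At 30 °C it lay between -0.56 and 0.40 in the WT libraries and between -1.36 and 0.26 in the KO libraries. At 22 °C it lay between -0.80 and 1.78 in the WT libraries and between -3.43 and -2.20 in the KO libraries. The WT libraries at 22 °C and 30 °C thus overlapped in the ratio. The KO libraries at 22 °C overlapped neither the WT libraries at 22 °C nor the KO libraries at 30 °C. Among the WT libraries at 22 °C, replicate 2 had the highest ratio and the highest Ckb. With that ratio as a covariate, the difference between KO and WT in Ckb at 22 °C was 2.19 (edgeR adjusted p 0.028). The fall at 22 °C was then -2.54 in WT and -1.01 in KO, and all 3 were still called. In the comparisons with KO at 22 °C, ratio and group cannot be told apart by this covariate. The part of the clock in Ckb was not tested. Summed endothelial markers (9 genes, none at 0 in a group) ran from 1380 to 1440 CPM in WT and 1420 to 1690 CPM in KO at 30 °C, and from 863 to 1050 and 1040 to 1230 CPM at 22 °C. Summed smooth muscle and pericyte markers (8 genes, none at 0 in a group) ran from 833 to 973 and 876 to 1050 CPM at 30 °C, and from 631 to 770 and 788 to 961 CPM at 22 °C. Both sums thus had their lowest library in WT at 22 °C, the group where Ckb was lowest. Genes of the smooth muscle and pericyte list did not all go that way. Cspg4 averaged 112 CPM in WT at 22 °C, against 71.9 CPM in KO there and 65.6 and 50.2 CPM in WT and KO at 30 °C. Of the 8 genes, 6 were called higher and 1 lower in KO than in WT at 22 °C. At 22 °C against 30 °C, 1 was higher and 3 lower in WT, and 3 higher and 2 lower in KO. Shares of all tested genes are given above. The part of either list in the result was not tested.

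Macrophage markers (10 genes, none at 0 in a group) also differed with temperature, with medians of 274 and 283 CPM in WT and KO at 30 °C and 144 and 150 CPM at 22 °C. Summed brown adipocyte markers (15 genes, none at 0 in a group) were higher at 22 °C, with medians of 13400 and 14500 CPM in WT and KO at 30 °C and of 25800 and 25400 CPM at 22 °C. Fabp4 and Ucp1 held much of this sum. In WT, Fabp4 averaged 6290 CPM at 30 °C and 11600 CPM at 22 °C, and Ucp1 1520 and 6180 CPM. Of the 15 genes, 8 were called higher and 2 lower at 22 °C in WT, and 5 higher and 1 lower in KO. Shares of all tested genes are given above. The part of these cell types in the fall of Ckb and Slc6a8 was not tested either. The stromal and fibroblast markers (8 genes, none at 0 in a group) had medians between 803 and 1080 CPM over the 4 groups. In KO against WT at 22 °C, 2 of these genes were called higher and 0 lower, Dcn (0.54, edgeR adjusted p 0.00147) and Lum (0.68, 0.00225). At 22 °C against 30 °C in WT, 3 were lower, among them Dcn (-0.72) and Lum (-0.91), and 1 was higher. The KO effects on Dcn and Lum differed between temperatures, by 0.69 and 0.71 (edgeR adjusted p 0.0128 and 0.0409). The part of these cells was not tested. Neutrophil markers (8 genes, with Ly6g at 0 in every group but KO at 22 °C) had medians of at most 3.43 CPM and reached 50.7 CPM in 1 KO library at 22 °C. Without the 5 libraries over 0.1% on skeletal muscle markers, the KO difference in Ckb at 22 °C was 1.46 (edgeR adjusted p 0.00689) and the falls were -2.26 in WT and -1.41 in KO.

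The genes most like Ckb over the 16 libraries were Fbln5 (r 0.96), Idh2 (0.95) and Crip2 (0.95). With group means taken off these became 0.47, 0.79 and 0.40, so for Fbln5 and Crip2 much of the likeness lay in the group means. Idh2, the mitochondrial NADP-dependent isocitrate dehydrogenase, averaged 771 and 762 CPM in WT and KO at 30 °C and 490 and 634 CPM at 22 °C. Crip2 averaged 153 and 188 CPM at 30 °C and 46.1 and 78.8 CPM at 22 °C, the same order of groups as Ckb. Reads of Ckb are uncertain in part because the processed copy Gm12892 matches its transcript at 96.78% over 1149 bases, although Gm12892 itself had 23 counts in all 16 libraries together.

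Ckmt2 (ENSMUSG00000021622, chromosome 13, 91853387 to 91876885, minus strand), the muscle-type mitochondrial creatine kinase, was present in some libraries of each group and all but missing from others. At 30 °C the WT libraries had 23, 307, 1 and 92 counts, and the KO libraries had 125, 473, 4 and 1. At 22 °C the WT libraries had 7, 24, 0 and 40 counts, and the KO libraries 1536, 1, 0 and 99. Each group held libraries with under 10 counts, and all groups overlapped. The largest count, 1536 in KO at 22 °C replicate 1 (105 CPM), was more than all the other libraries together held. The counts of 0 in WT and KO at 22 °C replicate 3 allow up to 3 counts, or 0.187 and 0.200 CPM, for counting error only.

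Ckmt2 followed the skeletal muscle markers from library to library. The 9 libraries with at least 0.0314% of their counts on the muscle list had 23 or more Ckmt2 counts, and the other 7, with at most 0.0173%, had 7 or fewer (at most 0.345 CPM). The 4 libraries with the largest muscle shares, at 0.959%, 0.587%, 0.391% and 0.18%, were also in that order the 4 highest in Ckmt2, at 105, 28.3, 17.6 and 8.83 CPM. The most similar profiles among the 9984 genes were those of Mylpf, a fast-muscle myosin light chain, Casq1, the calcium store protein of muscle, and Ttn, the giant sarcomere protein, each with r 0.99 with and without the group means. In the 9 libraries Ckmt2 stood at 4.32 to 10.4 counts per 1000 counts on the muscle list. The highest of these, 10.4, was KO at 22 °C replicate 1, and the other 8 libraries lay between 4.32 and 5.87. Against Ckm, the cytosolic muscle creatine kinase, Ckmt2 was 7.90% to 11.2% of its counts in those 8 libraries and 19.2% in KO at 22 °C replicate 1.

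Fibre-type markers were read as shares of muscle-list counts in that library and the 5 others with the most muscle counts. Myh2, a myosin of fast oxidative fibres, was 2.21% there and between 0.692% and 1.15% in the others. The other 6 markers lay inside the range of the others: Myh4 at 14.3% (12.8% to 17.8%), Myh1 at 3.59% (1.86% to 4.33%), Myh7 at 0.712% (0.0297% to 1.24%), Tnnt1 at 0.408% (0.0771% to 0.493%), Tnnt3 at 7.22% (6.45% to 7.82%) and Mb at 3.21% (2.06% to 4.15%).

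**Figure D4:**
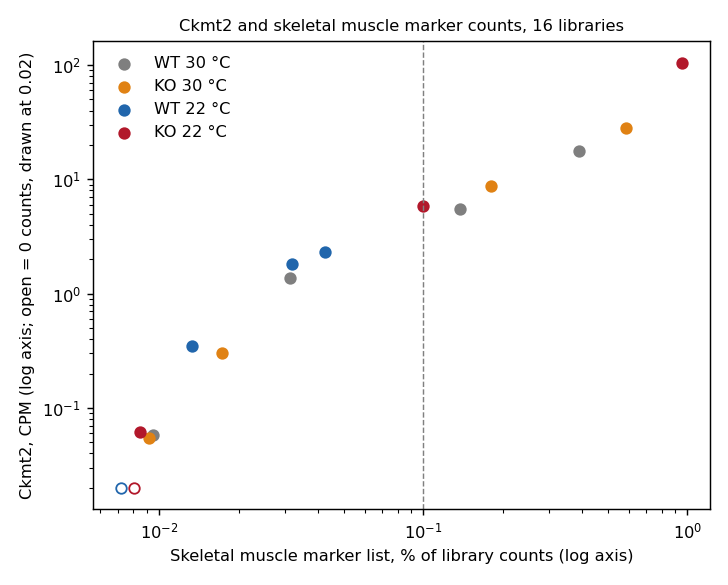
Ckmt2 in CPM against the share of library counts on 28 skeletal muscle markers, both on log axes, 1 point per library, with libraries of 0 Ckmt2 counts drawn open at the bottom and a dashed line at 0.1%. The points form 1 band from 0.00721% with 0 counts to 0.959% with 105 CPM, and all 4 groups lie along it.

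No comparison of Ckmt2 passed the test. KO against WT at 22 °C gave a log2 fold change of 4.65 (95% interval 0.54 to 8.75, edgeR adjusted p 0.102) and at 30 °C 0.61 (-2.81 to 4.04). The effect of 22 °C was -2.49 (-6.52 to 1.55) in WT and 1.55 (-1.83 to 4.92) in KO. With the muscle share as a covariate the difference between KO and WT at 22 °C was -0.42, the opposite sign, and the effect of 22 °C was 0.92 in WT and 0.66 in KO. For the muscle references, KO against WT at 22 °C gave 3.72 for Ckm, 3.99 for Acta1 and 3.74 for Myh4, none of them called. An antisense gene, 1700119I11Rik, shares 84 bases of exon with Ckmt2 and had 1 count in all.

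The make-up of the creatine kinases also differed with the muscle share. Per kilobase of merged exon, Ckb was 98.2% to 99.8% of the summed signal of Ckb, Ckm, Ckmt1 and Ckmt2 in the 5 libraries with at most 0.00949% of counts on the muscle list. In the next 2 libraries by muscle share it was 88.6% in WT at 22 °C replicate 1 (0.0133% of counts on the list) and 98.2% in KO at 30 °C replicate 3 (0.0173%). It was 9.80% in KO at 22 °C replicate 1, where Ckm held 65.5% and Ckmt2 24.7%. In WT at 22 °C replicate 4, with a muscle share of 0.0424%, Ckm held 50.5% and Ckb 40.5%. Ckmt1, the ubiquitous mitochondrial creatine kinase, had 0 or 1 count in every library. In the 7 libraries with at most 0.0173% of counts on the muscle list, neither mitochondrial creatine kinase had more than 7 counts.

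**Figure D5:**
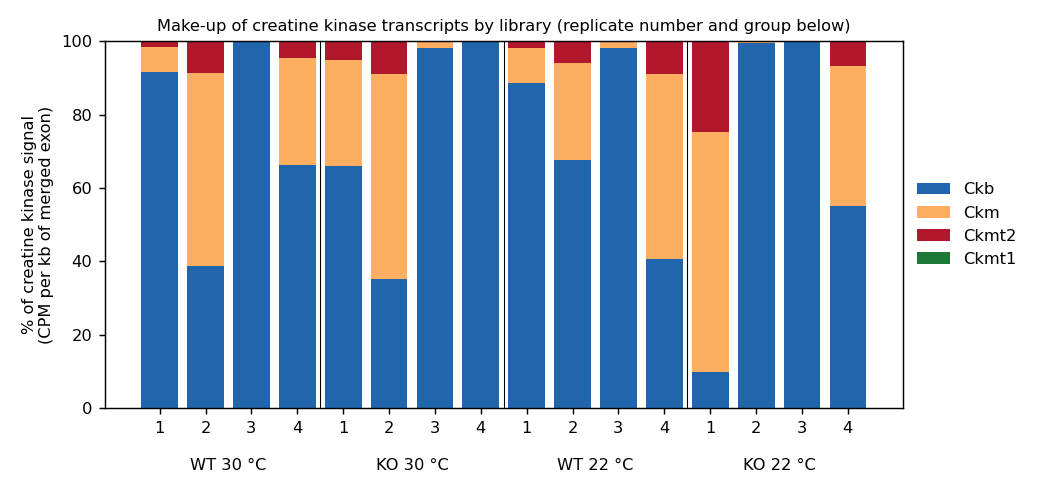
Share of each creatine kinase in the summed CPM per kilobase of merged exon of Ckb, Ckm, Ckmt2 and Ckmt1, 1 bar per library, from 0 to 100%. Ckb is 98.2% to 99.8% of the bar in the 5 libraries lowest in muscle markers, 88.6% in WT at 22 °C replicate 1, which is the next by muscle share, and 9.80% in KO at 22 °C replicate 1.

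Alpl (ENSMUSG00000028766, chromosome 4, 137741733 to 137796384, minus strand), the phosphatase that closes the cycle, had close levels in all 4 groups. At 30 °C the WT libraries had 13.0, 15.3, 14.4 and 13.7 CPM and the KO libraries 13.7, 14.2, 15.8 and 14.1 CPM. At 22 °C the WT libraries had 14.7, 17.1, 15.8 and 17.9 CPM and the KO libraries 18.0, 18.8, 14.4 and 18.2 CPM. The groups overlapped, and 3 of the 4 KO libraries at 22 °C lay above every library at 30 °C.

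The log2 fold change of Alpl at 22 °C against 30 °C was 0.22 (95% interval 0.01 to 0.42, edgeR adjusted p 0.0922) in WT and 0.26 (0.06 to 0.47, adjusted p 0.0556) in KO. Neither passed the test. Without KO at 22 °C replicate 3, the lowest KO library there, the KO value was 0.34 and was called (edgeR adjusted p 0.0171). KO against WT gave 0.04 (-0.17 to 0.24) at 30 °C and 0.09 (-0.12 to 0.29) at 22 °C. No gene was as like Alpl as those above were like the other members: the closest were Ints5 (r 0.81), Abcb1b (0.79) and Pde4d (0.78).

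Levels were compared between members per kilobase of merged exon. In WT at 30 °C the order was Ckb at 51.3, Slc6a8 at 14.4, Gamt at 6.04, Ckmt2 at 4.14, Alpl at 3.49 and Gatm at 1.62 CPM per kilobase. Among neighbours in this order, the ranges of the libraries did not overlap between Ckb and Slc6a8, Slc6a8 and Gamt, or Alpl and Gatm. Gamt overlapped Ckmt2, and Ckmt2 overlapped Alpl. The range of Ckmt2, 0.0387 to 11.8 CPM per kilobase, also took in that of Gatm, 1.29 to 1.94. In KO at 30 °C Ckb stood at 75.2 CPM per kilobase and Slc6a8 at 13.6, again with no overlap between them. In WT at 22 °C Ckb had come down to 10.1 CPM per kilobase, and its libraries overlapped those of Slc6a8 at 8.06. In KO at 22 °C Ckb stood at 28.0 CPM per kilobase and Slc6a8 at 7.89, and the mean of Ckmt2, 18.6, came between them, with libraries that overlapped both. Without KO at 22 °C replicate 1, Ckmt2 was the last of the 6 in that group. With the longest transcript in place of merged exons, Slc6a8 came before Ckb in WT at 22 °C.

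Genes around the cycle were counted from 6 lists, none of which had a called gene in KO against WT at 30 °C. The counts below stand beside these shares of all tested genes. In KO against WT at 22 °C, 7.52% were called higher and 10.1% lower. At 22 °C against 30 °C, 20.5% were higher and 17.8% lower in WT, and 13.8% and 13.0% in KO. For the difference of KO effects the shares were 0.752% and 2.39%. The lists were not tested as sets. Of 12 tested genes of arginine and glycine supply, 3 were higher and 0 lower in KO than in WT at 22 °C, among them Oat (0.41, edgeR adjusted p 0.00412), Asl (0.59, 0.0144) and the arginine transporter Slc7a1 (1.16, 0.0282). At 22 °C in WT, 4 were lower and 1 higher: Shmt1, which interconverts serine and glycine, fell by 0.46 (edgeR adjusted p 0.000597) and Oat, ornithine aminotransferase, fell by 0.42 (0.000996), while Gcsh of the glycine cleavage system rose by 0.43 (0.00585). In KO 1 was lower, Shmt1 at -0.53 (0.000427). The medians of the list were 0.03, -0.17 and -0.23 in these comparisons, and no gene of the list was called at 30 °C or for the difference of KO effects.

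Of 15 tested genes of methyl donor supply, which Gamt draws on, 3 were higher and 3 lower in KO than in WT at 22 °C. Nnmt, which methylates nicotinamide with S-adenosylmethionine, was higher by 1.87 (edgeR adjusted p 0.00108), averaging 104 ± 25.7 CPM against 28.6 ± 12.8 CPM (KO first, SD, n = 4). Mtr, methionine synthase, was higher by 0.89 (0.014), while Adk, adenosine kinase, was lower, at -0.36 (0.00953). The KO effects on Nnmt and Adk differed between the temperatures, by 2.19 and -0.52 (edgeR adjusted p 0.0157 and 0.0309). At 22 °C against 30 °C, 2 genes of this list were higher and 3 lower in WT, and 2 higher and 2 lower in KO. The list's median was -0.27 in KO against WT at 22 °C, and 0.14 and 0.02 for temperature in WT and KO.

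Of 13 tested genes of adenine nucleotide exchange across the mitochondrial membrane and adenylate kinases, 5 were higher and 1 lower at 22 °C in WT, and 2 higher and 0 lower in KO. Slc25a3, the mitochondrial phosphate carrier, rose by 1.05 in WT (edgeR adjusted p 1.53e-06) and by 0.78 in KO (6.24e-05), and Slc25a5, an ATP/ADP carrier, by 0.60 (2.92e-05) and 0.22 (0.0468). In KO against WT at 22 °C, 5 were lower and 1 higher, with Vdac1 at -0.44 (0.00482), Ak3 at -0.29 (0.012) and Slc25a5 at -0.29 (0.018), and with Slc25a42, a carrier of coenzyme A, at 0.76 (0.00479). The list's median was 0.23 in WT and 0.06 in KO for temperature, and -0.14 for KO against WT at 22 °C.

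Of the other creatine kinases, creatine carriers and phosphatases, 10 of 11 listed names matched the table and 5 of those were tested. Ank, the progressive ankylosis protein of the cell membrane, was called in 4 of the 5 comparisons. It averaged 141 ± 27.6 CPM in WT and 126 ± 9.27 CPM in KO at 30 °C, and 243 ± 32.9 and 87.1 ± 10.6 CPM at 22 °C (SD, n = 4). It rose by 0.78 at 22 °C in WT (edgeR adjusted p 0.000367) and fell by 0.53 in KO (0.0104), and the KO effects differed by -1.31 (0.00175). KO against WT at 22 °C was -1.48 (6.37e-06). Phospho2, a phosphatase, rose by 0.45 at 22 °C in WT (0.000921).

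Among genes of other heat-producing routes more rose than fell with the lower temperature. Of 14 tested genes, 8 were higher and 0 lower at 22 °C in WT, and 6 higher and 1 lower in KO. Dio2, the enzyme that activates thyroid hormone, rose by 3.94 (edgeR adjusted p 7.73e-06) and 4.43 (1.32e-05), and Gk, glycerol kinase, by 2.46 (2.01e-05) and 3.43 (8.19e-06). The list's medians were 0.64 in WT and 0.42 in KO. In KO against WT at 22 °C, 3 of the 14 were higher and 2 lower, with Ppargc1a at 1.16 (0.00348) and Gk at 1.06 (0.0205), and with Lipe, hormone-sensitive lipase, at -0.57 (0.00062). The KO effects differed between temperatures for 2 of the 14, Lipe at -0.53 (0.0318) and Pm20d1, which makes N-acyl amino acids, at -0.74 (0.0431). Of the 10 genes of the estrogen-related receptors, PGC-1 and their partners, 2 were higher and 1 lower at 22 °C in WT, and 2 higher and 0 lower in KO. Ppargc1a, which encodes PGC-1 alpha, rose by 1.30 in WT (0.000432) and by 2.41 in KO (1.2e-05), and Esrra rose by 0.58 in WT (0.006).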

How the data were processed

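Bulk RNA-seq of interscapular brown fat was given as 1 table of raw read counts per Ensembl gene, deposited by the authors with 1 column for each of the 16 libraries and no sign of normalisation in the values. Per the submitters' processing notes, the software was STAR 2.4.2a, FastQC 0.10.1 and edgeR 3.14.0, and the builds were mm10 and GRCm38. Not given in the sources used here are the program that counted reads, its annotation and its strand setting, so sense and antisense reads cannot be told apart. Libraries were grouped by their titles. A reference table gave symbols for 37607 of the 38924 identifiers, and the 1317 others held at most 0.131% of a library. Coordinates and exon lengths are those of GENCODE M21 on GRCm38.

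Genes passing edgeR's filterByExpr (minimum count 10) were tested in R 4.3.3 with edgeR 4.0.16: 1 quasi-likelihood model over the 16 libraries with a term per group, TMM factors, 12 residual degrees of freedom and Benjamini-Hochberg adjustment over all 14103 genes. The procedure was tested on simulated data. The standard error of a log2 fold change was taken as its size over the root of the F statistic. The members and all gene lists were chosen with earlier results of these data known. Named outside the members were Akt2, Ucp1, Ckm, Acta1 and Myh4, up to 4 called genes with the smallest p of each list and comparison, the 3 most similar genes of each member, and, picked after their values were seen, Ckmt1, Dbp, Arntl and 6 fibre-type markers (Myh1, Myh2, Myh7, Tnnt1, Tnnt3 and Mb). A gene under this rule is not reported here. Summed markers are sums of CPM over a list.

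Alternatives were DESeq2 1.42.0 and limma-voom with quality weights (limma 3.58.1) as tools, upper-quartile or relative-log-expression (RLE) factors, dropping the filter or making it stricter (a mean count of 20 and a CPM of 1 in 4 libraries), a fit of only the groups compared, a block for the replicate number, a skeletal muscle covariate, a clock covariate (Dbp minus Arntl, log2), leaving out the 5 libraries over 0.1% muscle counts, each library left out in turn and, for the order of levels, the longest transcript. A muscle limit of 0.05%, which 6 libraries exceed, was added after seeing the data.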

Additional observations from a re-analysis of the deposited data

Results flagged for a closer look

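In 4 of the 24 sets of 4 libraries (6 genes in 4 groups), 1 library stood farther from the others than Dixon's 95% critical value for the gap as a share of the range. Chance gives about 1 such set in 20. Ckmt2 in KO at 22 °C replicate 1 was 105 CPM, where the other 3 libraries lay from 0 to 5.88 CPM, and that library had the largest share of skeletal muscle counts. Slc6a8 in the same library was 59.0 CPM, where the others lay from 34.1 to 36.0 CPM. Slc6a8 in WT at 30 °C replicate 2 was 86.6 CPM, where the others lay from 70.1 to 72.8 CPM. That library had the largest share of skeletal muscle counts in its group, 0.391%. In WT at 22 °C the library highest in Slc6a8, replicate 4, also had the largest share, 0.0424%. In KO at 30 °C the library with the largest share, replicate 2 at 0.587%, was not the highest in Slc6a8. The part of muscle in the level of Slc6a8 was not tested. Ckb in WT at 30 °C replicate 3 was 119 CPM, where the others lay from 155 to 162 CPM.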

How the results depend on the processing

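The 5 called results, Ckb in 3 comparisons and Slc6a8 in 2, kept their direction and their call under every alternative run. With 1 library left out at a time, Ckb ranged from 1.34 to 1.68 (KO against WT at 22 °C), -2.56 to -2.21 (22 °C against 30 °C in WT) and -1.57 to -1.30 (in KO), and Slc6a8 from -1.01 to -0.76 in WT and -1.02 to -0.72 in KO. With the 6 libraries over a muscle limit of 0.05% left out, an alternative chosen after seeing the data, Ckb was 1.36 (edgeR adjusted p 0.0367), -2.26 (0.000859) and -1.51 (0.0353), and Slc6a8 was -0.75 (0.013) and -1.04 (0.0198).

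The number of genes called was less stable, and the cause was not tested. Where libraries were left out, the smaller number of libraries and the loss of those particular libraries cannot be told apart. For KO against WT at 30 °C (6 genes) it was 22 with DESeq2, 44 with limma-voom, and 1 both without the muscle-bearing libraries and at the 0.05% limit. For KO against WT at 22 °C (2482) it was 634 with only the groups compared, 109 with the clock covariate, 1096 without the muscle-bearing libraries and 404 at the 0.05% limit. For temperature in WT (5406) it was 3386 and 2880 under those limits. In KO (3772) it was 6067 with limma-voom, 2215 with the clock covariate, and 1755 and 790 under those limits. For the difference of KO effects (443) it was 236 with no filter, 1076 with DESeq2, 1050 with limma-voom, 29 with the clock covariate, and 15 and 1 under those limits, and 1 member was called with DESeq2 and with limma-voom. Upper-quartile factors moved the median of all genes for temperature to -0.13 in WT and -0.08 in KO, with 2196 genes higher and 3382 lower in WT and 1179 higher and 2540 lower in KO, and changed no member's call. With 1 library left out, the genes called ranged from 2 to 7 for KO against WT at 30 °C and from 147 to 1085 for the difference of KO effects, where 0 to 1 members were called. Of the 6 places in the order of levels, 3 to 6 were kept in KO at 30 °C and 1 to 6 in KO at 22 °C, and the longest transcript kept 2 in WT at 22 °C.

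Uncalled members changed sign under some alternatives. For KO against WT at 30 °C, Ckmt2 was -0.23 with limma-voom, -0.16 with the muscle covariate and -2.08 under both muscle limits, Gatm was -0.14 with the clock covariate, and Slc6a8 was 0.05 under both muscle limits. At 22 °C, Ckmt2 was -0.42 with the muscle covariate and -4.82 at the 0.05% limit, Gatm was -0.73 and Alpl -0.01 with the clock covariate. For temperature in WT, Gatm was 0.09 with limma-voom and 0.15 with the clock covariate, and Ckmt2 was 0.92 with the muscle covariate and 0.63 under both limits. In KO, Ckmt2 was -2.14 with limma-voom and -2.11 at the 0.05% limit, and Gatm was -0.43 with the clock covariate. For the difference of KO effects, Gamt was -0.13 with limma-voom, -0.03 with the muscle and -0.25 with the clock covariate, and -0.48 and -0.44 under the limits. Slc6a8 was -0.15, -0.07, -0.61, -0.32 and -0.29 in the same order. Ckmt2 was -0.25 with the muscle covariate and -2.75 at the 0.05% limit, Gatm -0.58 with the clock covariate, and Alpl -0.03 with the clock covariate and -0.06 and -0.10 under the limits. With 1 library left out, signs changed for KO against WT at 30 °C in Gatm (-0.15 to 0.23), Ckmt2 (-1.03 to 2.01) and Alpl (-0.01 to 0.07), at 22 °C in Slc6a8 (-0.26 to 0.14), for temperature in Gatm in WT (-0.38 to 0.20) and Ckmt2 in KO (-2.23 to 3.19), and for the difference of KO effects in Gamt (-0.25 to 0.19), Slc6a8 (-0.18 to 0.22) and Alpl (-0.01 to 0.13).

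Replicate numbers were not taken to pair libraries: same-numbered libraries had correlated deviations over 0.1 in 2 of 4 pairs of each comparison, with values from -0.50 to 0.45, and each library matched its own number best in 2, 1, 6 and 2 of 8 cases for KO against WT at 30 °C and 22 °C and for temperature in WT and KO. The replicate number as a block changed no member's call and gave 186 genes for the difference of KO effects. Among the members, Gatm, Gamt and Ckmt2 had the lowest counts, down to 21, 60 and 0 per library.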
